A study of Mus musculus with 8 samples.

Results

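MHC class II presentation genes were examined for DNA methylation in mouse B and T cells. The 10 genes were H2-Aa, H2-Ab1, H2-Eb1, H2-Oa, H2-Ob, H2-DMa, H2-DMb1, H2-DMb2, Cd74 and Ciita, of 21755 protein-coding genes in the annotation (GENCODE M21, build GRCm38). They are a list of names, set for their roles in class II presentation with earlier results of these data known. Each gene was taken as its body with 10 kb to either side. A CpG entered only where all 4 deposited files had 5 or more reads on it, which left 3312 CpGs in the regions of the 10 genes and 18714703 on the autosomes and X. The study sequenced bisulfite-converted DNA of whole genomes from resting splenic B cells negative for CD43 and from naive CD4+CD62L+ T cells, in females and males of the inbred strain C57BL/6J aged 6 to 8 weeks, with cells pooled over animals. The labels name no treatment, transgene or deletion in any group. The 8 samples formed 4 groups of 2, 1 group for each cell type in each sex, and a group's samples shared a single deposited file. The sources used here do not say whether such a file combines its samples, and each file's name carries the replicate number of only 1. Each file was counted as 1 measurement, so a group had no replicate, and the contrast of B with T cells was seen once per sex. Where levels are given as a pair below, the female file comes first and the male file second.

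Class II molecules are pairs of an alpha and a beta chain that carry peptides from engulfed proteins to the cell surface, where CD4+ T cells read them. B cells are professional antigen-presenting cells and express class II genes at rest, whereas naive T cells of the mouse do not present on class II. H2-Aa and H2-Ab1 encode the chains of the I-A molecule and H2-Eb1 the beta chain of I-E. Cd74 encodes the invariant chain, which blocks the groove of new class II molecules and guides them to endosomes. H2-DMa, H2-DMb1 and H2-DMb2 encode chains of H2-DM, which exchanges the remnant of the invariant chain for peptide, and H2-Oa and H2-Ob encode H2-O, which restrains H2-DM. Ciita encodes the coactivator that switches the whole family on. The protein does not bind DNA itself but docks on factors that sit on the X and Y boxes of class II promoters. Ciita has alternative promoters: pI is known from dendritic cells and macrophages, pIII from lymphocytes and pIV from cells exposed to interferon gamma. Methylated cytosines resist bisulfite conversion, and the methylation level of a CpG is the percentage of its reads left unconverted. The assay reads 5-methylcytosine and 5-hydroxymethylcytosine alike.

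The promoters below are shown because the starts of these 5 genes run from sequence unmethylated in both cell types to sequence that differed. They do not cover the whole range found, since no promoter was available here for Cd74 or Ciita. Each promoter shown runs from 250 bases before to 50 bases after the start given by RefSeq (GRCm38.p6), 5′ to 3′ on the strand of the gene. Capitals mark each CG, the Y box TGATTGG and the X box, spelled AGNNAC and then NGAT, with both motifs searched on both strands. H2-Aa lies at chr17:34287774-34288073 on the minus strand. The others are on the plus strand, H2-DMb2 at chr17:34144999-34145298, H2-DMb1 at chr17:34152941-34153240, H2-Eb1 at chr17:34305617-34305916 and the first of the H2-DMa entries at chr17:34122582-34122881.
H2-Aa: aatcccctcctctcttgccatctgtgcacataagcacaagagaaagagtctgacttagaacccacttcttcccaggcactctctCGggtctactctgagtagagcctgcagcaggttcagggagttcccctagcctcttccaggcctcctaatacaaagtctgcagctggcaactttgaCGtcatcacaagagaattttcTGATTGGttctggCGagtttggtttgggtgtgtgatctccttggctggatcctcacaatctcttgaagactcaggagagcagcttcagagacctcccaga
H2-DMb2: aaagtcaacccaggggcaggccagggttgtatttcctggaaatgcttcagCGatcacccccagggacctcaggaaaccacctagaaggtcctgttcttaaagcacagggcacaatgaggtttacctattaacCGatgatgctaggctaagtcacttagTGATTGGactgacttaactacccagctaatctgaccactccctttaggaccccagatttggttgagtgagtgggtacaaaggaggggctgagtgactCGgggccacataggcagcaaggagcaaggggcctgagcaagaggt
H2-DMb1: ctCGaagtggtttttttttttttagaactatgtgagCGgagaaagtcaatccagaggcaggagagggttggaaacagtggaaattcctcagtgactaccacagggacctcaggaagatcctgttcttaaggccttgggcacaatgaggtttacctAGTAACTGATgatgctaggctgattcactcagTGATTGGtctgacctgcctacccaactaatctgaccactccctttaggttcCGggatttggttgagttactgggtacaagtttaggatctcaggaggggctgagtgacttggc
H2-Eb1: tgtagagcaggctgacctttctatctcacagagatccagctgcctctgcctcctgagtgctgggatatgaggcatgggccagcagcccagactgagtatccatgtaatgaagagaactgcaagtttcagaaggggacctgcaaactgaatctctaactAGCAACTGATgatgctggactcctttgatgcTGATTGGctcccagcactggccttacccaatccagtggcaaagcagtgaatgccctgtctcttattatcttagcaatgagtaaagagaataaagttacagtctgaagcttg
H2-DMa: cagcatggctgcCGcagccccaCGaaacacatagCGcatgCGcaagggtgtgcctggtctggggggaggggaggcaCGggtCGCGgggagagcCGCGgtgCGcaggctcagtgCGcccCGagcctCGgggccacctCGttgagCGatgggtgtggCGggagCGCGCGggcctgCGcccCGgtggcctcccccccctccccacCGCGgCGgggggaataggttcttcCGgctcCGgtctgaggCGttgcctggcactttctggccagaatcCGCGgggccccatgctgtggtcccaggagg

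The RefSeq table held 8 promoters of 7 of the genes, and none for H2-Ab1, Cd74 or Ciita. The Y box was found in 6 of the 8 and the X box in 4. Of 32851 promoters of the same length, 7.82% held the Y box, 2.68% the X box and 0.198% both. In H2-Eb1 the X box began 92 bases and the Y box 61 bases before the start, and in H2-DMb1 they began 95 and 63 bases before it. The H2-Aa Y box began 50 bases before the start, and that of H2-DMb2 92 bases before. The X box of H2-Ob lay on the opposite strand and 32 bases after the start. In H2-Oa the X box began 141 bases and the Y box 45 bases before the start, farther apart than in H2-Eb1 and H2-DMb1. A match is a description of the letters only.

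The number of CGs in these windows ran from 0 in H2-Eb1 through 3 in H2-Aa, H2-DMb1 and H2-DMb2 to 29 in the first H2-DMa promoter. In H2-Aa the CpGs 71 and 37 bases before the start, which lie to either side of the Y box, had no methylated read in any file. They summed to 22 and 27 reads in the B cell files and 57 and 32 in the T cell files, counts of 0 that allow levels of up to 13.6% and 11.1% in B cells and 5.26% and 9.38% in T cells. Here and below, sums over CpGs count a read once for each CpG it covers. Limits and intervals from such sums take these counts as separate reads and are thus too tight. The 2 CpGs beside the H2-Aa Y box were thus unmethylated in T cells as well, at this depth. In H2-DMb2 the CpG 5 bases after the start was methylated in 76.9% of 13 reads in female T cells and 82.4% of 17 reads in male T cells. In B cells it had 0 of 8 reads in females and 0 of 13 in males, which allows up to 37.5% and 23.1%. The CpG of H2-DMb1 12 bases before the start had levels of 0% of 15 reads and 11.8% of 17 in B cells, with 22.2% of 18 and 47.6% of 21 in T cells. A count of 0 in 15 reads allows a level of up to 20%. At 5 to 35 reads a single CpG fixes a level only coarsely, and the tests below used sums over CpGs.

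The depth was 278275973 to 339923001 reads summed over autosomal CpGs per file, a read counting once for each CpG it covers. The mean was 14.6 to 17.7 reads per CpG. Levels over all autosomal CpGs were 79.5% to 80.7%. In the class II regions the mean was 11.8 and 15.3 reads per CpG in the B cell files and 19.3 and 18.3 in the T cell files, against 14.9 and 16.3 and 18.1 and 17.5 over all CpGs, so the B cell files were thinner here than elsewhere. At the 254 CpGs where B cells were at least 20 points lower in both sexes the mean was 11.0 and 13.8 reads in B cells and 18.6 and 19 in T cells, and over the 267312 such CpGs of the genome 14.1 and 15.7 in B cells and 17.8 and 17.3 in T cells. The part of depth in the differences was not tested. The cell types were checked at the starts of marker genes: 5 of 6 B cell markers were called lower in B cells and none higher, 5 of 6 T cell markers were called higher in B cells and none lower, and both Cd8a and Cd8b1 were called higher in B cells. None of 7 myeloid and dendritic markers, a group that also uses class II, was called by either test. Of the 7, 3 had an unadjusted p under 0.05 in the quasi-binomial test, against 1357 lower and 1651 higher in B cells of all 21082 gene starts. Lyz2 differed by -19.3 percentage points (adjusted p = 0.0436), just under the size needed. In a bulk sample a level between 0% and 100% can come from a share of the cells or of the alleles, which cannot be told apart here.

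Ciita, the master regulator, was called lower in B cells at 1 of its 3 coding starts. It spans chr16:10480059-10528418 on the plus strand, and the annotation gives coding transcripts that begin at 10480059, 10488279 and 10489746. By their order these are the starts of pI, pIII and pIV. Levels were summed over the CpGs within 500 bp of each start. At the first, 10 CpGs stood at 90.2% (95% Wilson interval 84.5 to 94.0) and 82.2% (76.3 to 86.9) in B cells, with 93.7% (89.3 to 96.4) and 90.3% (85.2 to 93.8) in T cells. The start was thus highly methylated in both cell types, and B minus T, the difference in percentage points averaged over the sexes, was -5.81 points and not called (adjusted p = 0.323). At the second start, 13 CpGs stood at 29.7% (23.8 to 36.3) and 27.2% (21.8 to 33.3) in B cells, with 67.2% (61.4 to 72.4) and 69.5% (63.5 to 74.9) in T cells. B cells were lower in both sexes, and the mean difference of -39.9 points was called (adjusted p = 6.54e-07). At the third start, 20 CpGs stood at 6.50% (4.29 to 9.73) and 8.79% (6.30 to 12.1) in B cells, with 15.6% (12.5 to 19.3) and 20.6% (16.9 to 24.8) in T cells. This start was low in both cell types. Its difference of -10.4 points had an adjusted p of 0.00353 but stayed under the 20 points set for a call, and it was -5.04 points with 10 reads per CpG and -3.43 points within 250 bp of the start. Intervals cover counting error only, and they take reads at neighbouring CpGs as separate reads.

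For a call, the adjusted p had to be below 0.05 and the difference, averaged over the sexes, 20 points or more. Methylated and unmethylated reads were fitted by quasi-binomial regression on cell type and sex, with p-values adjusted over all 32490 merged coding starts of the annotation. Of those starts, 1.04% were called lower in B cells and 1.07% higher. Among the 14 coding starts of the class II genes, 5 were called lower, 1 each of Ciita, Cd74, H2-Aa, H2-DMb1 and H2-DMb2, and none higher. Without the male B cell file the calls of Ciita, Cd74, H2-Aa, H2-DMb1 and H2-DMb2 were all lost, and without the male T cell file all but that of Cd74, although the Ciita value stayed between -41.1 and -38.6 points when any 1 file was left out. With limma on log2 ratios none of the 14 was called, nor was any of the 32490, and 9 of the 14 had an unadjusted p under 0.05 and lower levels in B cells by each test, a share of 64.3% against 7.81% (quasi-binomial) and 4.8% (limma) of all coding starts. The p-values rest on how far the cell type difference disagrees between the sexes, drawn toward the spread over all starts, and that disagreement may be technical.

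**Figure D1:**
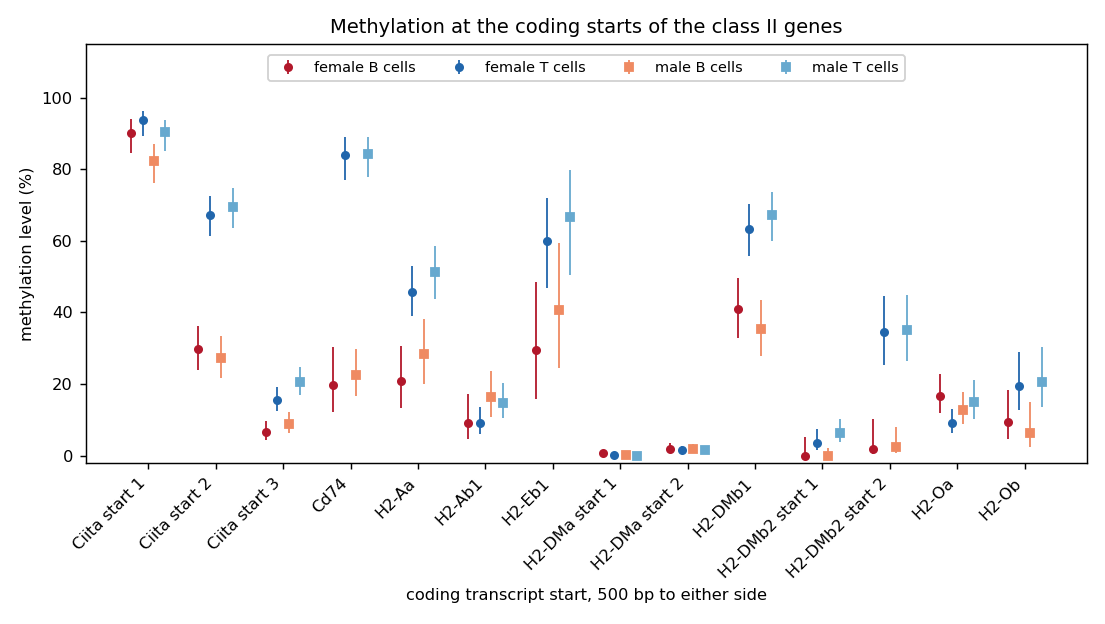
Methylation level in percent (vertical axis) over the CpGs within 500 bp of each of the 14 coding starts of the class II genes (horizontal axis), 1 point per file with its 95% Wilson interval as a bar. Both B cell points lie below both T cell points at the called starts, Ciita start 2, Cd74, H2-Aa, H2-DMb1 and H2-DMb2 start 2. The same holds at the uncalled Ciita starts 1 and 3, H2-DMb2 start 1, H2-Eb1 and H2-Ob. Within each sex the intervals of B and T cells overlap at H2-Ab1, H2-DMa, H2-Oa, Ciita start 1, H2-Eb1 and H2-Ob. At H2-DMb2 start 1 they overlap in females only.

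Single CpGs showed where around the second start the Ciita difference lay. The longest run of neighbouring CpGs with B cells at least 20 points lower in both sexes held 13 CpGs over 999 bp, chr16:10488317-10489315, from the second start to shortly before the third. Its levels were 21.3% and 17.8% in B cells, with 84.9% and 85.3% in T cells. Beyond 250 and up to 1000 bp past the second start the levels were 7.96% and 3.39% in B cells and 89.1% and 93.3% in T cells. The first 250 bp past that start were mixed, at 55.6% in female B cells and 54.7% in male B cells beside 89.3% and 86.0% in T cells. In the 250 bp before the second start 2 CpGs were low in T cells too, at 27.7% and 22.2%. In B cells they stood at 6.90% and at 0% of 45 reads. From 1000 to over 250 bp before it 5 CpGs stood at 19.2% and 15.4% in B cells, with 47.5% and 53.8% in T cells. Over the 250 bp past the third start the levels were low in all files, at 2.94% and 8.81% in B cells, with 6.50% and 8.93% in T cells. In the 250 bp before the third start 3 CpGs stood at 3.92% and 6.12% in B cells, with 20.8% and 13.2% in T cells. From 1000 to over 250 bp before it the levels were 6.61% and 3.33% in B cells and 83.0% and 85.1% in T cells. The sequence just past the third start was thus nearly unmethylated in both cell types. The methylated stretch of T cells lay farther before it. Ciita held 7 further runs of 3 or more lower CpGs, among them 4 CpGs at chr16:10491770-10492021 with 24.6% and 20.3% in B cells and 96.9% and 97.3% in T cells, and 3 CpGs at chr16:10516414-10516427 with 2.13% and 5% in B cells and 91.2% and 80.2% in T cells. No run of higher CpGs was found in its region.

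**Figure D2:**
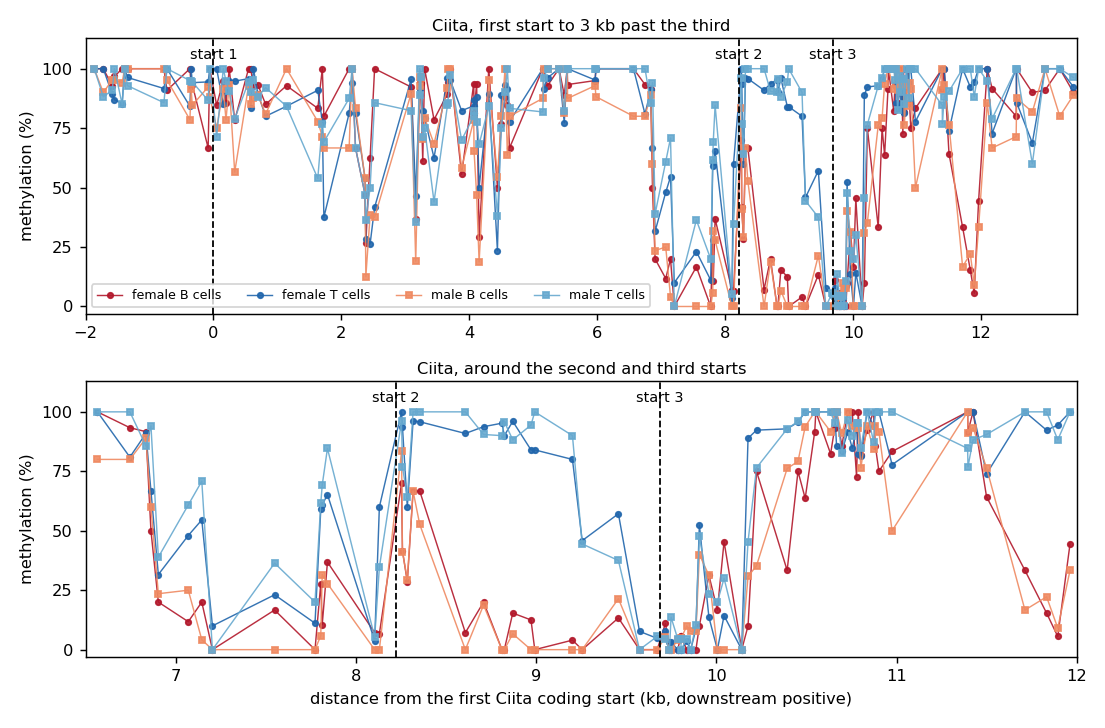
Methylation of single CpGs in percent (vertical axis) along Ciita, by distance in kb from the first coding start (horizontal axis), for the 4 files, with dashed lines at the 3 coding starts. The upper panel spans all starts and the lower panel enlarges the last 2. Over the 13 CpGs of the longest run between them the pooled levels are 17.8% to 21.3% in B cells and 84.9% to 85.3% in T cells, and all 4 lines meet near 0 just past the third start.

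In fixed windows of 1 kb, 10 of the 67 windows of Ciita were called lower in B cells and none higher. Over the 2018320 windows of the genome, 2.08% were called in either direction, 0.913% lower and 1.16% higher in B cells. The window at the first Ciita start, chr16:10480001-10481000, was not called (-4.22 points, adjusted p = 0.497). The window at the second, chr16:10488001-10489000, which holds an untranslated exon part, had levels of 30.4% and 24.4% in B cells, with 79.5% and 77.3% in T cells. The difference was -51.0 points (adjusted p = 1.45e-38). The window at the third, chr16:10489001-10490000, stood at 3.34% and 6.93% in B cells and 23.2% and 27.3% in T cells, and its difference of -20.1 points passed the size only narrowly (adjusted p = 8.69e-19) and fell under it without the female B cell file (-18.3 points), without the male T cell file (-18.0 points) and with 10 reads per CpG (-16.5 points). Such small p-values rest on a spread between files averaged over all windows and not on the spread of the window itself. A further group of called windows lay in the later part of the gene, in the 4 kb of chr16:10515001-10519000 and at chr16:10508001-10509000, where the gene Dexi is annotated on the opposite strand. There the window chr16:10516001-10517000 stood at 16.3% and 18.3% in B cells, with 55.8% and 54.0% in T cells.

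Cd74, the invariant chain gene, had the largest difference of all 14 coding starts. The 9 CpGs around its start stood at 19.7% (95% Wilson interval 12.1 to 30.4) and 22.5% (16.6 to 29.8) in B cells, with 83.9% (77.0 to 89.0) and 84.3% (77.8 to 89.1) in T cells. The difference, B minus T, was -64.2 points for females, -61.8 for males and -63.0 on the mean, and was called (adjusted p = 5.44e-08), though not without the male B cell file (-64.4 points). The intervals of the B and T cell files lay far apart. The coding start lies at position 60803848 of chromosome 18, plus strand, and the gene ends at 60812652. The longest run of lower CpGs covered the start, with 15 CpGs over 1661 bp, from 60803211 to 60804871. Over this run the levels were 22.4% and 19.8% in B cells, with 87.1% and 86.2% in T cells. No other class II gene had so long a run. A second, of 8 CpGs from 60806230 to 60806839 inside the gene, stood at 44.0% and 34.9% in B cells and 93.8% and 86.6% in T cells. Of the 28 windows of Cd74, 6 were called lower in B cells, next to each other from 60802001 to 60808000, and the window from 60804001 to 60805000, in an exon of the gene, had 25.6% and 20.7% in B cells and 93.7% and 87.7% in T cells (-67.5 points, adjusted p = 1.05e-18). Over the gene body the level was 66.7% and 69.3% in B cells, with 85.5% and 83.8% in T cells. The 10 kb past the gene were 93.5% to 96.2% methylated in every file.

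H2-Aa and H2-Ab1, the genes of the I-A chains, looked different from each other. H2-Aa lies at chr17:34282744-34287823 on the minus strand. Within 500 bp of its start 10 CpGs stood at 20.7% and 28.3% in B cells, with 45.8% and 51.2% in T cells, and the difference of -24.0 points was called (adjusted p = 0.0104). That call was lost when any 1 of the 4 files was left out and with no sex term. The lower levels did not sit at the CpGs beside the Y box, which were at 0 in all files. Over the first 250 bp of the gene 5 CpGs stood at 21.4% and 36.4% in B cells and 54.7% and 53.4% in T cells, among them a run of 3 lower CpGs at chr17:34287730-34287762 with 11.1% in each B cell file and 41.4% and 39.3% in T cells. Beyond 250 and up to 1000 bp into the gene 3 CpGs stood at 5.88% and 2.22% in B cells, with 68.0% and 54.5% in T cells. In the sequence 1000 to over 250 bp before the start 4 CpGs stood at 54.8% and 44.7% in B cells and 80.9% and 81.2% in T cells. Of the 19 windows of H2-Aa 4 were called lower, and the one at chr17:34287001-34288000 over the first exon had 12.3% and 12.4% in B cells and 42.0% and 43.3% in T cells (-30.3 points, adjusted p = 3.72e-09). With limma on log2 ratios none of the 19 was called. The body of the gene stood at 61.1% and 60.1% in B cells and 80.5% and 80.2% in T cells. By number of CpGs, the longest run of lower CpGs near H2-Aa lay outside the gene at chr17:34295948-34296061, in an intron of the transcript Gm20513. There 5 CpGs over 114 bp had 12.5% and 20% in B cells, with 76.5% and 75.3% in T cells. The run with the greatest length, 4 CpGs over 454 bp at chr17:34286689-34287142, lay inside the gene, with 3.70% and 2.13% in B cells and 72.6% and 74.6% in T cells.

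H2-Ab1 had a low level at its coding start in both cell types. Its coding transcript begins at chr17:34263209 on the plus strand, and 10 CpGs around it stood at 9.20% and 16.3% in B cells, with 9.17% and 14.9% in T cells. B minus T was 0.726 points (adjusted p = 0.955), and the values were higher in males than in females in both cell types. A run of 8 CpGs, from 133 bp before to 242 bp after the start and chosen after the values were seen, had no methylated read in any file. The sums over these CpGs were 74 and 94 reads in the B cell files and 186 and 151 in the T cell files. Taken as separate reads, they allow levels of up to 4.05% and 3.19% in B cells and 1.61% and 1.99% in T cells. That count is a description, since the CpGs were picked for it. Beyond 250 and up to 1000 bp past the start 10 CpGs stood at 10.0% and 10.6% in B cells, with 18.4% and 27.4% in T cells. In the body, chr17:34257689-34269419, which begins with a non-coding transcript, the levels were 41.0% and 32.9% in B cells and 47.2% and 44.2% in T cells. Only 1 of its 27 windows was called, chr17:34261001-34262000 in an intron, at 46.5% and 41.7% in B cells, with 65.3% and 64.2% in T cells (-20.7 points, adjusted p = 0.00256). The same window lies in the region of H2-Ob and was the only one called there. It was no longer called without the male B cell file (-18.3 points), nor with limma on log2 ratios.

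H2-Eb1 encodes the beta chain of I-E, whose alpha chain C57BL/6 mice do not make. It had the largest share of called windows. B cells were lower in 7 of its 26 windows (26.9%) and higher in none, though without the windows that overlap H2-Eb2 it was 5 of 24 (20.8%), just under the shares of Cd74 (21.4%) and H2-Aa (21.1%). It lies at chr17:34305867-34316674 on the plus strand. Its promoter holds no CG in the letters shown above, and only 3 CpGs counted within 500 bp of the start, with 27 to 55 reads per file. They stood at 29.6% (95% Wilson interval 15.9 to 48.5) and 40.7% (24.5 to 59.3) in B cells, with 60% (46.8 to 71.9) and 66.7% (50.3 to 79.8) in T cells, and a difference of -28.1 points was not called at this depth (adjusted p = 0.156). From 1000 to over 250 bp before the start the sum over 4 CpGs was higher in B cells in both sexes. Levels were 32.4% and 13.2% in B cells and 12% and 10.5% in T cells, a difference with no test. In males it was only 2.74 points, and single CpGs varied. There the CpG at chr17:34304955 was lower in B cells (17.6% against 25.9%) and that at chr17:34305099 higher (40% against 11.8%). The others had no methylated read in either male file. The window just inside the gene, chr17:34306001-34307000 with an exon, had 28.8% and 32.6% in B cells and 78.0% and 82.0% in T cells. B cells were lower in both sexes there (-49.3 points on the mean, adjusted p = 2.38e-11). Of the 7 windows, 2 lie at the far end of the flank, over the start of H2-Eb2, a second gene of this type at chr17:34325665-34341412. The longest run near H2-Eb1 was there too, at chr17:34325419-34325919, where 6 CpGs stood at 6.67% and 3% in B cells, with 69.2% and 74.0% in T cells. Over the body of H2-Eb1 the levels were 56.9% and 51.6% in B cells and 63.4% and 60.6% in T cells.

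**Figure D3:**
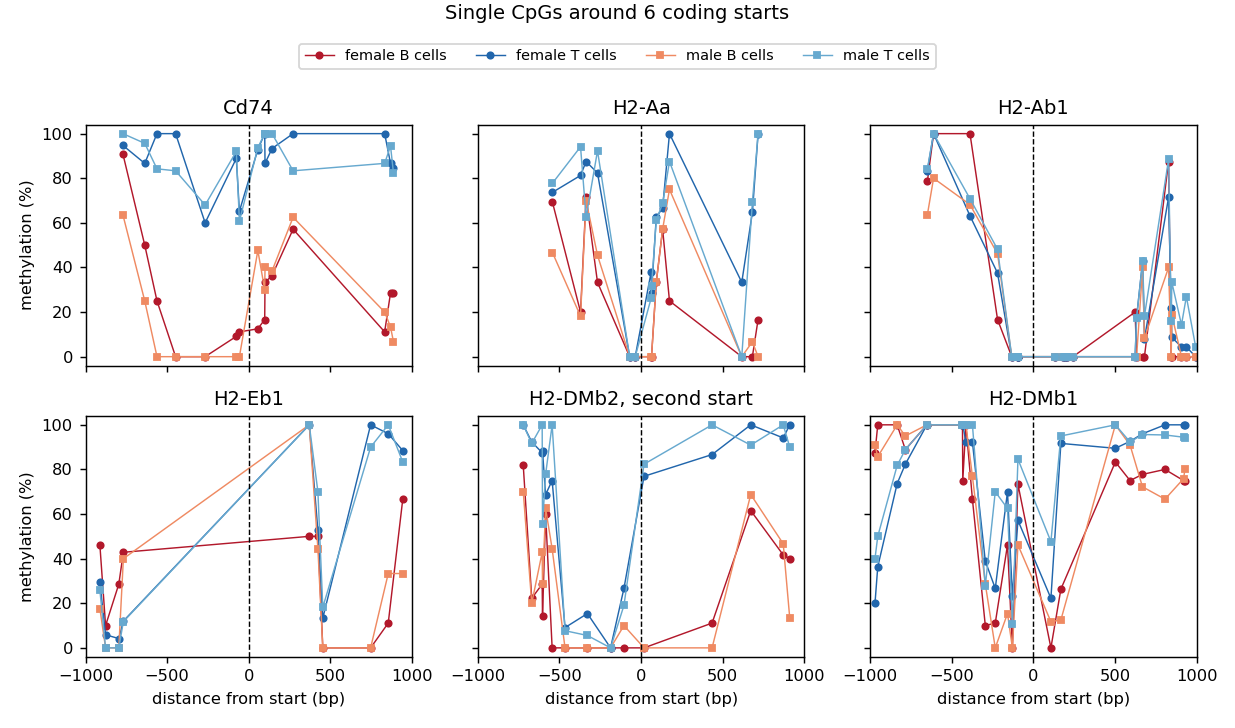
Methylation of single CpGs in percent (vertical axis) within 1000 bp of 6 coding starts, by distance from the start in bp (horizontal axis, downstream positive), for the 4 files. Around Cd74 the B cell lines stay below the T cell lines, around H2-Ab1 all lines reach 0 together at the start, and in H2-Aa all lines meet at 0 just before the start and part on both sides of it. Levels of 5 to 35 reads per CpG move in coarse steps.

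The genes of H2-DM also differed from each other. H2-DMa, the alpha chain gene, was nearly unmethylated at both of its coding starts in both cell types. At the first, chr17:34122832, 73 CpGs stood at 0.642% and 0.0971% in B cells, with 0.234% and 0% of 1070 reads in T cells, a count of 0 that allows up to 0.280%. At the second, chr17:34135628, 33 CpGs stood at 1.87% and 1.74% in B cells and 1.51% and 1.48% in T cells. The differences of 0.252 and 0.313 points were not called (adjusted p = 0.597 and 0.895). The first start lies just past the 5′ end of Brd2, a gene on the opposite strand at chr17:34112023-34122634. Of the 38 windows of H2-DMa 4 were called lower, all past the gene toward or over H2-DMb2, and 1 was called higher. It was the only gene with a called window higher in B cells inside its body, chr17:34128001-34129000, over the antisense transcript CR974462.4. There 16 CpGs stood at 61.0% and 60.5% in B cells, with 14.0% and 14.8% in T cells (46.4 points, adjusted p = 1.02e-47). A run of 7 CpGs inside it, chr17:34128480-34128856, had 55.0% and 56.0% in B cells, with 1.27% and 2.96% in T cells. Over the body, chr17:34119541-34139101, the levels were 33.8% and 36.2% in B cells and 30.1% and 32.4% in T cells.

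H2-DMb2, a beta chain gene, has 2 coding starts. The first, chr17:34143307, stood at 0% of 68 reads and 0% of 167 reads in B cells, with 3.47% and 6.38% in T cells, where counts of 0 allow up to 4.41% and 1.80%. It was not called (-4.93 points, adjusted p = 0.0344). The second, chr17:34145236, stood at 1.92% and 2.30% in B cells, with 34.4% and 35.0% in T cells, and was called lower in B cells (-32.6 points, adjusted p = 0.000204). This call was lost without the male B cell file and without the male T cell file. The CpG 5 bases after the RefSeq start described above lies in this interval. A run of 7 CpGs over 1211 bp, chr17:34145254-34146464, stood at 40.3% and 37.0% in B cells, with 94.5% and 93.8% in T cells. It is the longest run of lower CpGs in the regions of H2-DMb2 and of H2-DMa, which overlap. Of the 29 windows of H2-DMb2 5 were called lower. The one with the largest mean difference, chr17:34145001-34146000 over an untranslated exon part, had 18% and 16.2% in B cells and 63.2% and 58.2% in T cells (-43.6 points, adjusted p = 1.01e-09). Over the body, chr17:34143307-34151555, levels were 71.6% and 66.1% in B cells, with 84.9% and 84.6% in T cells.

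H2-DMb1, the other beta chain gene, was called lower in B cells at its start. At chr17:34153072 on the plus strand 11 CpGs stood at 40.9% and 35.3% in B cells, with 63.4% and 67.2% in T cells (-27.2 points, adjusted p = 0.00159). From 1000 to over 250 bp before the start the sum over 10 CpGs was higher in B cells in both sexes, at 81.0% and 89.8% in B cells and 75.3% and 76.6% in T cells, a difference with no test. Single CpGs there varied, and the CpG 374 bp before the start was lower in B cells in both sexes. Over the 250 bp past the start 2 CpGs stood at 14.7% and 12.2% in B cells and 61.9% and 70.7% in T cells. The call was lost when any 1 of the 4 files was left out. H2-DMb1 and H2-DMb2 are close copies of each other, and whether reads were placed in the wrong copy was not tested. Of its 25 windows 4 were called lower, 3 of them in the flank before the gene, over H2-DMb2, and 1 at its own start, chr17:34153001-34154000. The 2 called higher both lay in the flank past the gene. The second, chr17:34164001-34165000, stood at 75.7% and 59.6% in B cells and 36.6% and 38.4% in T cells. In the first, chr17:34162001-34163000, which is intergenic, 14 CpGs stood at 87.6% and 79.9% in B cells, with 48.0% and 43.7% in T cells (37.9 points, adjusted p = 1.05e-23). The run of CpGs around it, chr17:34162264-34163137, was the longest of H2-DMb1 in either direction, with 11 CpGs at 86.0% and 75.9% in B cells and 31.6% and 25.8% in T cells. The body of H2-DMb1, chr17:34153072-34160230, stood at 81.8% and 81.1% in B cells, with 91.0% and 89.7% in T cells.

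H2-Oa and H2-Ob, the genes of the H2-O chains, had at most 1 called window each and no called start. At the start of H2-Oa, chr17:34092340 on the plus strand, 12 CpGs stood at 16.7% and 12.6% in B cells, with 9.22% and 14.9% in T cells. The sign of B minus T differed between the sexes, and the start was not called (2.58 points, adjusted p = 0.728). None of its 23 windows was called by either test, and 6 had an unadjusted p under 0.05 in the quasi-binomial test, 5 of them lower in B cells. Of these 6, 5 also had an adjusted p under 0.05 and missed only the 20 points, with differences from -13.6 to 10.6 points. The body, chr17:34092340-34095234, stood at 39.0% and 41.2% in B cells and 37.3% and 40.6% in T cells. The longest run of lower CpGs in its region lay in an intron of the transcript CR974462.2, chr17:34105021-34105106, with 5 CpGs at 40.0% and 54.7% in B cells and 98.7% and 96.5% in T cells. At the start of H2-Ob, chr17:34238903 on the plus strand, 6 CpGs stood at 9.46% and 6.25% in B cells, with 19.6% and 20.7% in T cells, and were not called (-12.3 points, adjusted p = 0.198). The body, chr17:34238903-34254414, stood at 66.5% and 68.9% in B cells and 74.3% and 70.4% in T cells. Of its 32 windows only the 1 shared with H2-Ab1 was called. A run of 3 CpGs before the gene, chr17:34236199-34236239, had 32.6% and 36.6% in B cells, with 91.2% and 96.2% in T cells.

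The 10 genes were also tested at the 5′ end of the whole gene with 1 kb to either side, where 0.432% of 21082 gene starts were called lower in B cells and 0.484% higher. Of the 10, 2 were called lower, Cd74 and H2-Aa, and none higher. The interval is wider than the one used above, and for H2-Ab1 and H2-DMa it lies at a non-coding transcript. Cd74 stood at 29.1% and 21.9% in B cells, with 87.3% and 87.1% in T cells (-61.7 points, adjusted p = 5.44e-05), a call lost without the male B cell file or the male T cell file. H2-Aa stood at 24.1% and 22.4% in B cells and 52.1% and 53.9% in T cells (-29.8 points, adjusted p = 0.0118), but where 10 reads per CpG were asked for its difference was only -2.02 points. That minimum left out CpGs such as those 682 and 717 bp into the gene, which were lower in B cells in both sexes. It kept the 2 just before the start, at 0 in all files. The call of H2-Aa was lost with 10 reads per CpG and when any 1 file was left out. H2-DMb2 stood at 16% and 8.07% in B cells and 27.5% and 26.9% in T cells and passed the adjusted p but not the size (-15.2 points, adjusted p = 0.0469). H2-Eb1 stood at 30.3% and 22.2% in B cells and 50.7% and 46.9% in T cells and was not called (-22.5 points, adjusted p = 0.0928). With 10 reads per CpG its difference was -1.79 points, whereas the same interval was called when adjusted among the coding starts. That minimum left out, among others, the CpGs 747, 855 and 944 bp past the start of H2-Eb1, which were lower in B cells in both sexes. H2-DMb1 stood at 60.5% and 65.1% in B cells and 77.6% and 77.0% in T cells, H2-Ab1 at 74.4% and 73.6% in B cells and 85.0% and 81.0% in T cells, and H2-Ob at 11.9% and 12.7% in B cells and 17.8% and 21.4% in T cells. H2-Oa stood at 53.3% and 49.8% in B cells and 52.6% and 54.2% in T cells, Ciita at 91.4% and 85.2% in B cells and 92.6% and 91.1% in T cells, and H2-DMa at 0.0752% and 0.249% in B cells and 0.0659% and 0.0791% in T cells. These last 6 were not called, although H2-DMb1 was called with 10 reads per CpG (-28.5 points) and, as above, with 500 bp to either side (-27.2 points). With 10 reads per CpG H2-DMb2 stood at -31.8 points and was not called.

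Over all 10 genes, the 257 windows, each counted once, held 33 called lower (12.8%) and 3 called higher (1.17%) in B cells. For the genome the shares were 0.913% and 1.16%, so the share of windows higher in B cells was near the background and the share of lower ones was above it. Of the 257 windows, 72.0% had a value of B minus T below 0, against 49.3% of all windows, and the median difference was -2.35 points against 0.0489. The 33 lower windows had the same sign in both sexes in all 33 cases and 20 points or more in both sexes in 24. Their mean differences ran from 20.1 to 67.5 points in size, with a median of 30.3. Neighbouring genes share 51 windows, of which 6 were called lower. Among windows within 2 kb of a coding start of a class II gene, 18 of 50 were called lower (36.0%) and none higher. Over all genes 1.41% of the 106741 windows that close to a coding start were called lower. In the gene bodies farther from a start 10 of 98 were called lower and 1 higher, and in the flanks 5 of 109 lower and 2 higher, against 0.885% lower and 1.14% higher of all windows beyond 2 kb of every coding start. The sets are not fully alike, since the flanks can hold starts of genes outside the 10. The 5 lower flank windows include those over the start of H2-Eb2. Of the 36 called windows in all, 21 touched an exon, 11 lay in introns and 4 between genes.

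**Figure D4:**
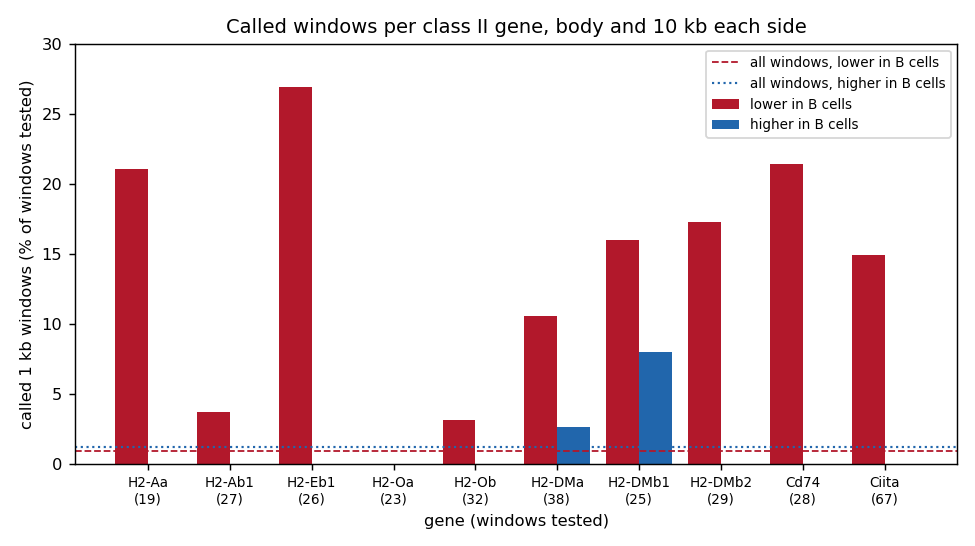
Share of 1 kb windows called lower (red bars) and higher (blue bars) in B cells, in percent of windows tested (vertical axis), for each class II gene with its number of windows in parentheses (horizontal axis). The dashed and dotted lines give the shares over all windows, 0.913% and 1.16%. H2-Eb1 (26.9%), Cd74 (21.4%) and H2-Aa (21.1%) stand highest, and H2-Oa has no called window.

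**Figure D5:**
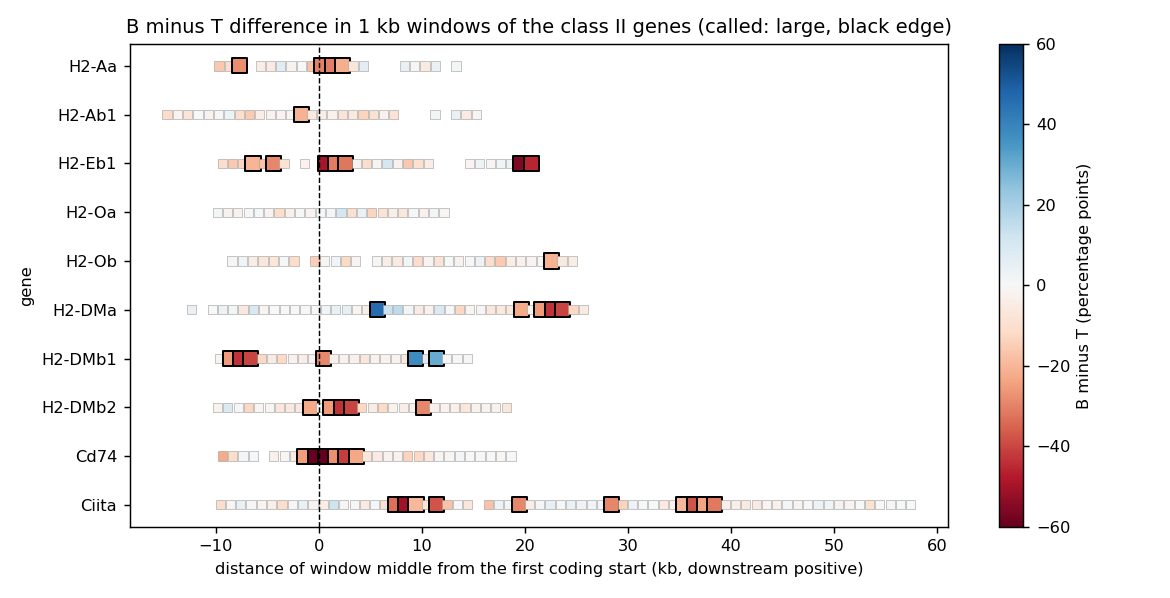
Windows of 1 kb in the region of each class II gene (1 row per gene), by the distance in kb of the window's middle from the first coding start (horizontal axis, downstream positive), coloured by B minus T in percentage points, with called windows large and edged in black. Called windows of Cd74 sit in 1 block at the start, those of Ciita in separate blocks from about 7 kb past its first start, and the 3 called windows higher in B cells lie in H2-DMa and past H2-DMb1.

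Single CpGs gave the same picture as a description. Of the 3312 CpGs of the class II regions, 254 (7.67%) were at least 20 points lower in B cells in both sexes and 62 (1.87%) at least 20 points higher, against 1.43% and 1.59% of all CpGs. The share of lower CpGs ran from 3.19% in the region of H2-DMa to 19.8% in that of H2-Eb1. The higher ones were concentrated in H2-DMa, with 26, and H2-DMb1, with 21. There were 30 runs of 3 or more neighbouring lower CpGs, of 3 to 15 CpGs and 14 to 1661 bp, and 6 runs of higher ones. That is 9.06 lower and 1.81 higher runs per 1000 CpGs, against 1.01 and 1.30 over all CpGs. H2-Ab1 had none of either kind. Over whole regions, flanks included, B minus T ran from -10.5 points in H2-Eb1 to 1.52 points in H2-DMa, and the median over 21509 gene regions was 0.442 points with 95% of them between -3.95 and 5.26. The regions of H2-Aa, H2-Ab1, H2-Eb1, H2-Ob, H2-DMb2, Cd74 and Ciita were below that range, and those of H2-Oa, H2-DMa and H2-DMb1 inside it.

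Other genes of the pathway were counted at their gene starts. By neither test was any of the 7 genes of factors that act on class II promoters (Rfx5, Rfxap, Rfxank, Nfya, Nfyb, Nfyc and Creb1) called, with a median difference of 0.0955 points and 1 unadjusted p under 0.05. None of 5 tested genes of proteases that cut antigen was called (1 of 6 listed was not tested), with a median of 0.883 points and no unadjusted p under 0.05. None of 5 genes of class II turnover and costimulation (March1, March8, Cd80, Cd86 and Cd40) was called, with a median of -0.516 points and 2 unadjusted p under 0.05. The median over all gene starts was 0.147 points. Of all 21082 gene starts, 1357 had an unadjusted p under 0.05 with lower levels in B cells and 1651 with higher levels (quasi-binomial test). Of 7 genes of class I processing, several of which lie among the class II genes, none was called, and 3 had an unadjusted p under 0.05. Psmb8, a subunit of the immunoproteasome, had 5.95% and 6.97% in B cells and 0.503% and 0.633% in T cells, an adjusted p of 0.000464 and a difference of only 5.89 points. H2-Eb2, of the other class II genes, was the only gene of these lists that was called, at 35.3% and 27.3% in B cells and 76.5% and 81.1% in T cells (-47.5 points, adjusted p = 0.000431). The other 2 of 3 genes on that list were not tested.

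Sex was tested in the same fit. None of the 257 windows was called between females and males by the quasi-binomial test or by limma, and 14 (5.45%) had an unadjusted p under 0.05 in the quasi-binomial test, against 4.73% of autosomal windows. On the autosomes 0.00103% of windows were called. In 1 window, chr17:34309001-34310000 of H2-Eb1, females were higher by 11.2 points with an adjusted p of 1.76e-05, which missed only the size. The largest difference among the class II windows was 18.1 points in size, in another window of H2-Eb1 (adjusted p = 0.919). With 1 file per sex and cell type, a sex difference in only 1 cell type could not be tested.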

How the data were processed

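Whole-genome bisulfite sequencing of 8 samples in 4 groups was used. Per the labels, reads were handled with Trim Galore, FastQC and Bismark 0.13.1 on build mm10, which is GRCm38. The deposited files give, per CpG, the methylation level as a fraction made by the authors (methylated over all reads) and its coverage as a count of reads. Strands were merged, the lowest coverage was 5 reads, and all positions on the chromosomes of these genes lay on a CG. Duplicate removal and conversion rates are not given in the sources used here. Kept duplicates would widen the true error, and sequence to which reads do not map uniquely or at enough depth is missing.

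Multiplying fraction by coverage and rounding to whole numbers gave the methylated reads, whose share of the coverage lay within 0.001 of the deposited fraction. They were summed over 1 kb windows with at least 3 CpGs of 5 or more reads in all 4 files, gene starts and coding transcript starts (starts within 500 bp merged). A quasi-binomial regression on cell type and sex, which leaves 1 residual degree of freedom, was fitted in Python 3.11.15, with dispersions squeezed by squeezeVar of limma 3.58.1 (R 4.3.3), F tests and Benjamini-Hochberg adjustment over all windows or starts of the genome. The dispersion prior came from windows with 5 or more expected reads of each kind, and for windows its degrees of freedom were infinite. The fit was tested on simulated data with known changes.

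Every class II gene was named, with its called window of the largest smaller difference of the sexes in each direction, the windows at the Ciita starts, its longest run of differing CpGs (by number of CpGs), and called genes of the pathway lists. The genes and lists were chosen with earlier results of these data known. Alternatives were other coverage minimums, windows, thresholds, tests, priors and flanks, and each file left out.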

Additional observations from a re-analysis of the deposited data

Results flagged for a closer look

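H2-Oa was the only class II gene whose B cell and T cell difference had opposite signs in females and males in the 3 intervals compared here. Within 500 bp of its coding start B minus T was 7.45 percentage points for females, -2.29 for males. Within 1 kb of the gene start it was 0.629 points for females, -4.40 for males. Over the gene and its 10 kb flanks it was 0.00221 points for females, -2.66 for males. These intervals share reads. The difference between the sexes was not tested, since each sex had 1 file per cell type.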

How the results depend on the processing

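Of the class II windows, 36 were called in either direction. The count was 22 with 10 reads per CpG, 60 of 413 windows of 500 bp, 17 of 138 windows of 2 kb, 60 at a threshold of 10 points, 20 at 30 points and 16 with limma on log2 ratios. It ranged from 30 to 34 when 1 file was left out. No sex term, a prior from all windows, Fisher's exact test in each sex and no flank gave 36, 33, 28 and 26. Shares over all windows of the genome at these settings are not given here. The counts thus do not show how far each setting stands from its background. Of the 2 called gene starts, 1 was left at 30 points, and 0 to 1 when 1 file was left out (0 without the male B cell or the male T cell file). The second Ciita start, at -39.9 points, was not called with limma, and ranged from -41.1 to -38.6 points when 1 file was left out, with the call lost without either male file. The third, at -10.4 points, was called at a threshold of 10 points and with 1 kb to either side (-23.9 points), was -5.04 points with 10 reads per CpG and -3.43 points with 250 bp to either side, and ranged from -12.9 to -7.91 points when 1 file was left out. The first ranged from -9.79 to -1.82 points with 1 file left out and was never called. A threshold of 10 points gave 1 window called for sex. No start or window named as called turned its direction under the alternatives in which it could be tested, whereas uncalled differences near 0 changed sign under some of them, at starts of H2-Ab1, H2-DMa and H2-Oa. With 10 reads per CpG only 5 of the 11 coding starts outside Ciita and 6 of 10 named windows could be tested. The called coding starts of Cd74, H2-Aa and H2-DMb2 kept too few CpGs at that depth. Causes were not tested, but leaving out a file leaves 3 files and no sex term. No paired analysis was possible because the groups share no replicate numbers. Depth limits single CpGs and starts with few CpGs, such as that of H2-Eb1, and windows rest on an average spread between files.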

Other observations

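Around coding starts of genes that work beside class II, chosen here after their values were seen, small differences stayed under 20 points. Levels are given with the female file first. Cd40, a receptor through which T cells help B cells, stood at 0.521% and 0.234% in B cells, with 2.56% and 4.71% in T cells (-3.26 points, adjusted p = 0.0129, quasi-binomial test). Cd86, a costimulatory ligand, stood at 6.34% and 10.2% in B cells and 2.07% and 1.04% in T cells (6.70 points, adjusted p = 0.03). The last of the 4 coding starts of Nlrc5, the regulator of class I genes related to Ciita, stood at 87.0% and 88.5% in B cells and 79.9% and 72.6% in T cells (11.5 points, adjusted p = 0.0378). Each of these differences had the same sign in both sexes. Within 1 kb of the gene start the adjusted p was 0.113 for Cd40 and 0.122 for Cd86 (quasi-binomial test). By the same test the other coding starts of Nlrc5 had an adjusted p of 0.635 to 0.811. The share of all coding starts with an adjusted p under 0.05 is not given here.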
